A study of Saccharomyces cerevisiae with 16 samples.

Results

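The translation activators of yeast mitochondria are nuclear-encoded proteins that each serve 1 or a few of the mRNAs made inside the organelle. Their own mRNAs are translated in the cytosol, where initiation uses eIF3, and were followed here through ribosome footprints and mRNA reads from *Saccharomyces cerevisiae* cells with altered eIF3. The members were chosen by name, as 10 genes: *PET111*, *PET309*, *PET494*, *PET54* and *PET122*, which act on mRNAs of cytochrome c oxidase subunits, and *CBS1*, *CBS2*, *CBP1*, *CBP3* and *CBP6*, which act on the mRNA of cytochrome b. Counts were given for 5647 genes, of which 9 are members. *PET122* was not analysed here. All 9 had the 128 or more mRNA reads, summed within a background, that were required for testing, in both backgrounds.

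Yeast mitochondria make a handful of very hydrophobic subunits of the respiratory chain and of the ATP synthase, together with 1 protein of their own ribosome. An activator binds the 5′ leader of its mRNA or the mitochondrial ribosome near the inner membrane, and without it the mRNA is not translated although the ribosomes remain functional for other messages. Pet309 serves *COX1*, Pet111 serves *COX2*, and Pet54, Pet122 and Pet494 act together on *COX3*. Cbs1 and Cbs2 are needed for translation of *COB*, the cytochrome b mRNA. Cbp1 stabilises that mRNA. Cbp3 and Cbp6 form a complex at the exit of the mitochondrial ribosome that promotes cytochrome b synthesis and then takes up the new protein for assembly. The mitochondrial target mRNAs themselves were not analysed here.

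*eIF3a/b Degron* cells (YAJ34, *MATa*) carry *tif32td* (eIF3a) and *DHFRts-prt1td* (eIF3b), each expressed from the copper-dependent *CUP1* promoter as a UBI-R-HA fusion, and their WT (YAJ3, *MATa*) carries the empty plasmid pRS316 [*URA3*] in place of these alleles. Both strains have *PGAL1-myc-UBR1* at *ubr1*, the galactose-driven ubiquitin ligase that degrades the fusions, and both lack *GCN2* (*gcn2::hisG*), with *trp1Δ*, *ura3-52* and the same auxotrophic *leu2* allele in common. These strains grew at 25°C in raffinose medium with copper and were moved to raffinose and galactose with the copper chelator BCS at 36°C for 90 min. *eIF3i DDKK* cells are H450 (*MATa*, with *tif34Δ*, *trp1Δ*, *ura3-52::GCN2* and *leu2-3,-112*) carrying YCp-i/TIF34-D207K-D224K-HA, and their WT is H450 with YCp-i/TIF34-HA. Both entries also list hc *TIF34 URA3*, and the labels do not say whether that plasmid was still present at harvest. The 2 H450 strains went from 30°C to 37°C for 30 min in synthetic complete medium. The 2 backgrounds thus differ in strain, *GCN2* status, medium, temperature and time as well as in the eIF3 lesion, and these cannot be told apart in a comparison between them. Each strain is 1 line grown as 2 cultures, and each culture gave a footprint and an mRNA library, for 16 libraries in 8 groups. The labels call the cultures replicates and say no more of their origin. The p-values below thus measure the spread between the libraries of these cultures, which edgeR estimates in part from other genes. Cycloheximide was added shortly before harvest.

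Footprint libraries held 6157260 to 6493910 reads in *eIF3a/b Degron* cells against 18160621 to 20768634 in WT, and 5136423 to 6177463 in *eIF3i DDKK* cells against 26747366 to 29982592 in WT. The mRNA libraries held 4389212 to 12164617 reads. Footprint reads on the altered genes numbered 708 and 697 for *TIF32* and 957 and 951 for *PRT1* in *eIF3a/b Degron* cells, against 6033 and 5503 and against 8105 and 7374 in WT, a larger gap than that in depth. The mRNA of these 2 genes did not fall. Its log2 change, mutant minus WT, was 0.397 for *TIF32* (adjusted p = 3.67e-06, edgeR) and 0.202 for *PRT1* (adjusted p = 0.00667). The *TIF34* substitutions cannot be checked in counts. Of the mating-type genes, the 5 *MATa* genes had 167 (*MFA1*) to 13385 (*STE2*) reads in a library. The *MATalpha* genes *STE3* and *MFALPHA2* had 56 to 390 and 0 to 8 reads. *SAG1*, also a *MATalpha* gene, had 185 to 517 reads in the mRNA libraries, within the range of *MATa* genes, and 1 to 20 in the footprint libraries. *MFALPHA1* had 109 to 294 reads in *eIF3a/b Degron* cells, against 24 to 44 in their WT, and 4 to 16 in the DDKK background. A single gene, YDR445C, took 8.79% to 29.9% of the reads of an mRNA library, and a fit without it is among the alternatives. With no spike-in, a change below is a change against the rest of the transcripts sequenced with it. Values are averages over a culture, so that fewer cells with an mRNA and less of it per cell cannot be told apart.

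The question here was how the activator genes are translated in each strain and whether they respond to the loss of eIF3 as a group. In WT cells their mRNAs lay close together while their ribosome occupancy did not. Levels are given as RPKM (reads scaled to the counted length of the gene and to the TMM-scaled size of the library). In WT of the Degron background, mRNA ranged 2.72-fold over the 9 genes, between 28.2 RPKM for *PET309* and 76.6 RPKM for *CBP3*, and footprints ranged 59.2-fold, between 3.73 RPKM for *PET111* and 221 RPKM for *CBP6*. In WT of the DDKK background the ranges were 3.48-fold for mRNA and 51.1-fold for footprints. The members' medians in WT of the Degron background were 40.3 RPKM for mRNA and 28.4 RPKM for footprints. Those of the 78 mitoribosomal protein genes, all of them tested, were 89.5 and 228 RPKM, and those of all genes tested 46.5 and 43.3 RPKM.

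**Figure D1:**
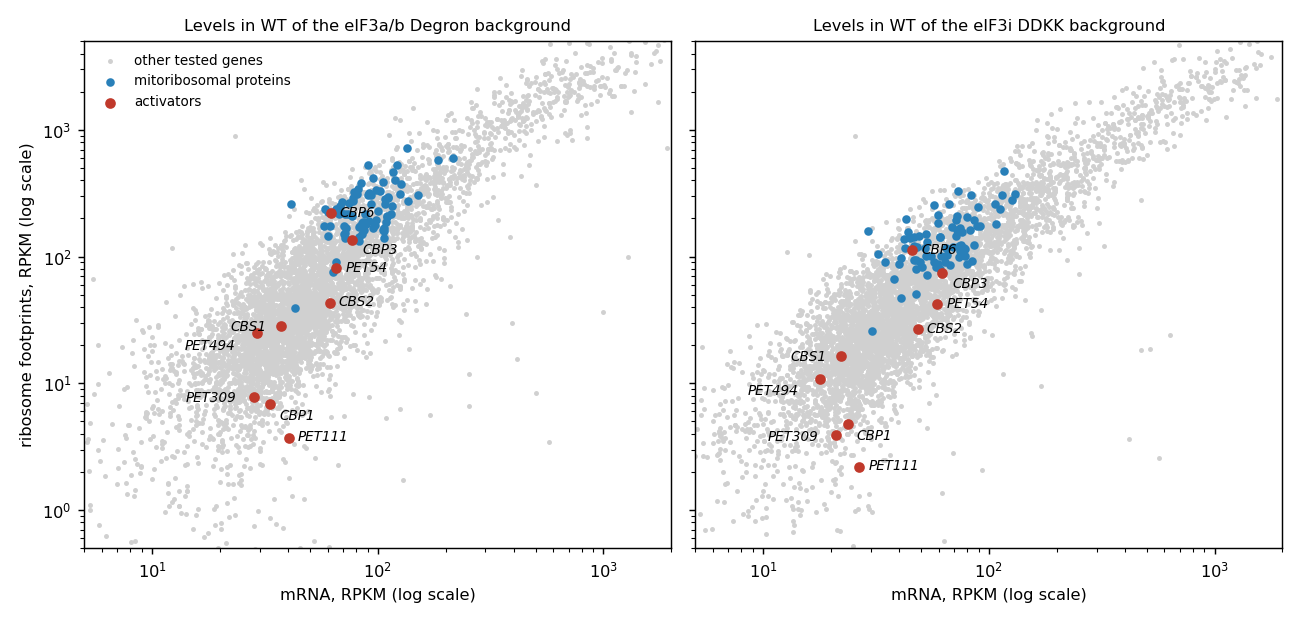
Footprint RPKM (y, log scale) against mRNA RPKM (x, log scale) in WT of each background, as the mean of 2 cultures, for the 9 activators, the 78 mitoribosomal proteins and the other tested genes within the axis limits. The activators run down a steep column, with *CBP6* at 221 and *PET111* at 3.73 footprint RPKM in the Degron background, while most mitoribosomal proteins gather around *CBP6* and *CBP3*.

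Translational efficiency (TE) is the ratio of footprints to mRNA of a gene in 1 culture, on the log2 scale and with the value of the median tested gene of that culture subtracted. *PET111* was the lowest member in both WT strains, with log2 TE of -3.46 and -3.34 in the Degron background and -3.56 and -3.70 in the DDKK background. Only 2.7% and 2.0% of the tested genes were lower. *CBP1* (-2.26 and -2.24, and -2.52 and -2.17 in the DDKK background) and *PET309* (-1.87 and -1.76, and -2.30 and -2.62) followed. The cultures of *CBP1* and *PET309* overlapped in the DDKK background and did not in the other. These 3 are also the longest coding sequences of the group, at 1965 to 2898 nt.

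A middle group held *CBS2*, *CBS1*, *PET494* and *PET54*. Their log2 TE lay between -0.50 and 0.34 in WT cultures of the Degron background and between -0.91 and -0.41 in those of the DDKK background. By the means, *CBS2* was the lowest of these in both WT strains, *PET54* was the highest in the Degron background and *CBS1* in the DDKK background. *CBP3*, with 0.85 in both cultures of the Degron background and 0.27 and 0.19 in the DDKK background, and *CBP6*, with 1.86 and 1.87, and 1.21 and 1.33, stood above the median gene. *CBP6* is the shortest coding sequence of the group, at 489 nt, and 94.3% of the tested genes were below it in WT of the Degron background. The subunits of the Cbp3-Cbp6 complex thus stood next to each other at the top of the order in both WT strains. The members' median log2 TE was -0.36 and -0.75, against 1.44 and 1.09 for the mitoribosomal proteins, of which 1 of 78 lay below the median gene in each WT strain.

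The start codons of the members at the ends of this order are shown with the 12 bases before and 3 bases after them, since initiation reads this window. Sequences are RefSeq's for the R64 genome (sacCer3), on the coding strand, with the start codon in capitals.
PET111: tacgagaacttaATGtta
CBP1: cctttccatgcaATGttt
PET309: tttttggccattATGaaa
CBP3: ttccaacacttgATGatg
CBP6: gcaagtgccaaaATGtct

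These windows lie at chrXIII:782026-782043 (- strand, *PET111*, YMR257C), chrX:37993-38010 (+ strand, *CBP1*, YJL209W), chrXII:270705-270722 (- strand, *PET309*, YLR067C), chrXVI:147404-147421 (+ strand, *CBP3*, YPL215W) and chrII:480918-480935 (- strand, *CBP6*, YBR120C). An A at the third base before the start codon, the most common base there in yeast, was found in 4 of the 9 members (44.4%), in 61.5% of the mitoribosomal protein genes and in 60.9% of 5448 genes with an annotated start. Of the genes shown, *PET309* and *CBP6* have this A, and *PET111*, *CBP1* and *CBP3* do not. A relation of this base to TE was not tested. All 9 members have 1 coding exon. None overlaps another annotated gene, and none of their 28-nt windows occurs in another gene. Their coding sequences had a median GC content of 36.3%, against 39.9% for mitoribosomal protein genes and 39.7% for all. At least 1 ATG lay within 300 nt upstream of every member, as for 94.0% of all genes, and within 100 nt upstream of 5 of the 9 (55.6%), against 50.1% of all genes. The median number within 300 nt was lower for the members, at 2, against 4 for mitoribosomal protein genes and 4 for all. Transcript starts were not used, so the share of these ATGs that lies in the mRNA is unknown.

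**Figure D2:**
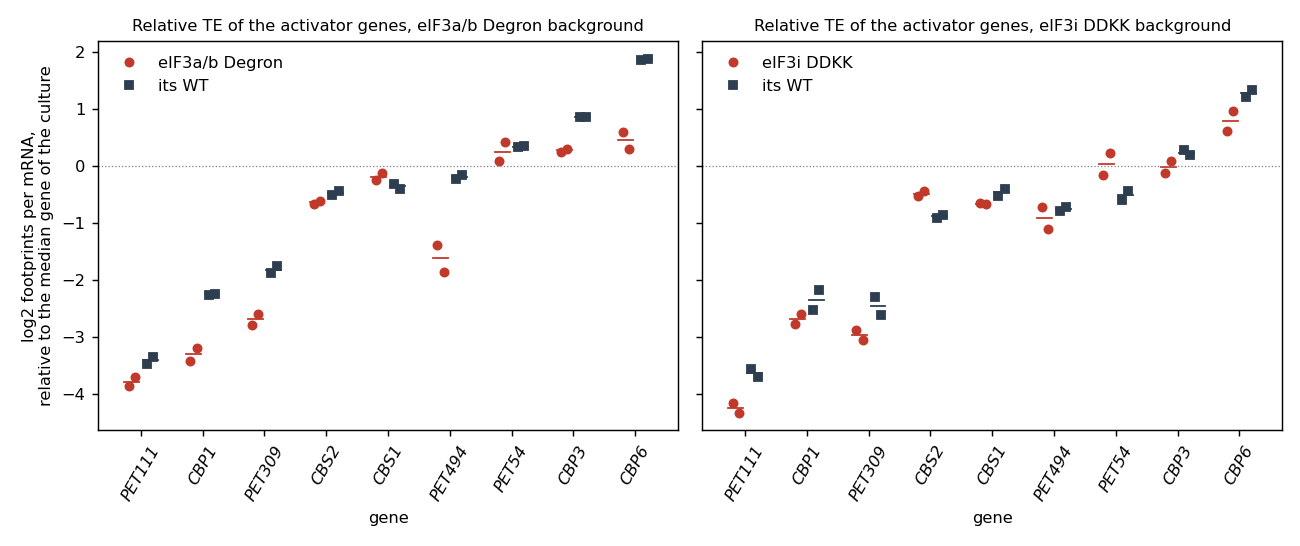
Log2 TE relative to the median gene (y) of each activator (x, ordered by TE in WT of the Degron background) in each of the 2 cultures per strain, with a line at their mean. *CBP6* and *PET494* show the widest gap between *eIF3a/b Degron* cells and WT, and by the mean *PET111* is lowest and *CBP6* highest in all 4 strains.

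In *eIF3a/b Degron* cells the TE of 5 of the 9 activators fell and that of none rose (edgeR's quasi-likelihood test of the interaction of assay and genotype, Benjamini-Hochberg adjusted p under 0.05). Over all 5306 genes tested, 33.1% were called lower and 26.8% higher. The 5 were *CBP6*, *PET494*, *CBP1*, *PET309* and *CBP3*. *PET111*, *CBS2*, *PET54* and *CBS1* did not pass the test. The members' median TE change was -0.60 on the log2 scale, against -0.04 for all genes. Scaling by library size alone or by TMM within each assay split the calls over all genes differently, at 975 lower and 2479 higher and at 1378 lower and 1832 higher against 1755 and 1420 here, but 5 members were called lower and none higher in each of these fits.

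Among the genes for cytochrome oxidase messages, *PET494* fell most. It lies on chromosome XIV from 706139 to 707608 (+ strand, YNR045W) and its product acts on *COX3* mRNA. It had 7.18 and 4.66 footprint RPKM in *eIF3a/b Degron* cells, against 25.1 and 24.5 in WT, from 58 and 36 reads and 549 and 475 reads. Its mRNA was 19.4 and 17.7 RPKM in the mutant and 29.9 and 28.2 RPKM in WT. Both quantities fell without overlap between the strains. The footprint change was -2.06 (SE 0.16, adjusted p = 2.03e-11, edgeR) and the mRNA change -0.64 (SE 0.12, adjusted p = 3.45e-05), which leaves a TE change of -1.42 (SE 0.21, adjusted p = 3.99e-06). TE in the mutant was 0.375 of that in WT, and its log2 TE moved to -1.38 and -1.86, below that of any WT culture of the middle group.

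*PET54*, on chromosome VII from 939923 to 940804 (+ strand, YGR222W), serves the same *COX3* mRNA and also has a part in splicing *COX1*. It behaved otherwise. Its footprints were 54.6 and 69.1 RPKM in *eIF3a/b Degron* cells against 81.6 and 80.6 RPKM in WT, and its mRNA 53.4 and 53.5 RPKM against 65.8 and 65.0 RPKM. The 2 changes were of similar size, at -0.39 (SE 0.096, adjusted p = 0.000645, edgeR) for footprints and -0.29 (SE 0.096, adjusted p = 0.00925) for mRNA. Log2 TE was 0.08 and 0.42 in the mutant, on either side of the 0.33 and 0.34 of WT, and the TE change of -0.10 (SE 0.14, adjusted p = 0.536) did not pass the test and had the opposite sign with library size alone, with TMM within each assay, with all 16 libraries in 1 fit or without the first mutant culture. The mRNA call of *PET54* was lost without either WT culture.

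*PET309*, on chromosome XII from 267813 to 270710 (- strand), encodes the pentatricopeptide repeat protein that stabilises and activates *COX1* mRNA. Footprint levels of 2.58 and 3.47 RPKM in *eIF3a/b Degron* cells stood against 7.63 and 8.05 RPKM in WT. Its mRNA was at 18.7 and 21.7 RPKM, against 28.4 and 27.9 RPKM. Both fell, by 1.37 (SE 0.16, adjusted p = 3.21e-08, edgeR) for footprints and by 0.48 (SE 0.092, adjusted p = 6.36e-05) for mRNA, and TE fell by 0.89 (SE 0.19, adjusted p = 0.000335).

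*PET111*, on chromosome XIII from 779629 to 782031 (- strand), encodes the activator of *COX2*. It had 2.61 and 2.34 footprint RPKM in *eIF3a/b Degron* cells and 3.85 and 3.60 in WT. These rest on 35 and 30 reads in the mutant and 140 and 116 reads in WT, the smallest sums of the group in this background. Its mRNA was 39.7 and 31.8 RPKM against 43.2 and 37.5 RPKM, so that the cultures overlapped. Footprints fell by 0.59 (SE 0.23, adjusted p = 0.019, edgeR). The TE change of -0.42 (SE 0.25, adjusted p = 0.144) did not pass the test, although log2 TE was below WT in both mutant cultures, at -3.86 and -3.70. Such a lack of overlap in this direction was seen for 41.6% of all genes. The footprint call of *PET111* was lost with library size alone (adjusted p = 0.15), and without the second mutant culture or the first WT culture (adjusted p = 0.0657 and 0.0622).

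Of the genes that act on *COB*, both subunits of the Cbp3-Cbp6 complex fell. *CBP6* lies on chromosome II from 480435 to 480923. It had 62.2 and 54.9 footprint RPKM in *eIF3a/b Degron* cells, against 220.0 and 221 RPKM in WT, and 42.4 and 46.4 RPKM mRNA against 61.6 and 62.0 RPKM. The levels of the strains did not overlap in either quantity. Footprints fell by 1.91 (SE 0.10, adjusted p = 1.25e-14, edgeR), mRNA by 0.48 (SE 0.11, adjusted p = 0.000646) and TE by 1.44 (SE 0.16, adjusted p = 6.8e-08), to 0.37 of the WT value. By its mean TE the gene stood above 61.6% of the tested genes in the mutant, against 94.3% in WT, the largest shift within the group.

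*CBP3*, on chromosome XVI from 147416 to 148423, had 61.8 and 63.0 footprint RPKM in *eIF3a/b Degron* cells against 140.0 and 131 RPKM in WT. Its mRNA was 54.2 and 52.8 RPKM against 78.5 and 74.7 RPKM. The mRNA change of -0.52 (SE 0.079, adjusted p = 3.06e-06, edgeR) was close to that of *CBP6*, while the TE change was smaller, at -0.60 (SE 0.11, adjusted p = 6.9e-05). Footprints of *CBP3* fell by 1.12 (SE 0.077). The difference between the 2 partners was not tested.

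*CBP1*, on chromosome X from 38005 to 39969, was called in footprints and in TE but not in mRNA, alone among the members. Its mRNA was 31.7 and 36.4 RPKM in *eIF3a/b Degron* cells and 33.6 and 33.3 RPKM in WT, with a change of 0.03 (SE 0.093, adjusted p = 0.817, edgeR) that turned negative with DESeq2, with library size alone, with TMM within each assay, with all 16 libraries in 1 fit and without the second mutant culture. Its footprints were 2.84 and 3.83 RPKM, from 31 and 40 reads, against 6.90 and 6.88 RPKM in WT, from 204 and 180 reads. Footprints fell by 1.05 (SE 0.19, adjusted p = 1.6e-05) and TE by 1.07 (SE 0.21, adjusted p = 0.000133).

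*CBS1* and *CBS2*, whose products act on the 5′ leader of *COB*, showed the smallest footprint changes of the group. *CBS1*, on chromosome IV from 333121 to 333810, had 26.6 and 26.7 footprint RPKM in *eIF3a/b Degron* cells, between the 31.9 and 25.0 RPKM of WT, and 32.8 and 30.1 RPKM mRNA against 40.1 and 34.0 RPKM. None of its 3 changes passed the test, and the TE change was 0.13 (SE 0.22, adjusted p = 0.63, edgeR), with both mutant cultures above both of WT as for 39.0% of all genes. *CBS2*, on the same chromosome from 851228 to 852397, had 36.3 and 38.5 footprint RPKM against 43.1 and 43.2 RPKM in WT, and 59.8 and 60.7 RPKM mRNA against 62.0 and 60.2 RPKM. Its footprint change of -0.21 (SE 0.091, adjusted p = 0.0401) passed the test, but lost the call with each of the 4 cultures left out, with DESeq2, with TMM within each assay and with all 16 libraries in 1 fit, and had the opposite sign with library size alone. The TE change of -0.19 (SE 0.12, adjusted p = 0.187) did not pass and also changed sign with library size alone.

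Over the members, mRNA fell for 5 of 9 (*PET494*, *CBP3*, *PET309*, *CBP6* and *PET54*) and rose for none, against 30.8% lower and 44.3% higher over all genes. Footprints fell for 8 of 9, all but *CBS1*, against 41.3% of all genes lower and 41.8% higher. With library size alone 5 of 9 fell, without the calls of *PET111*, *PET54* and *CBS2*. The 4 genes with the largest footprint changes, *PET494*, *CBP6*, *PET309* and *CBP3*, fell in mRNA and in TE as well.

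**Figure D3:**
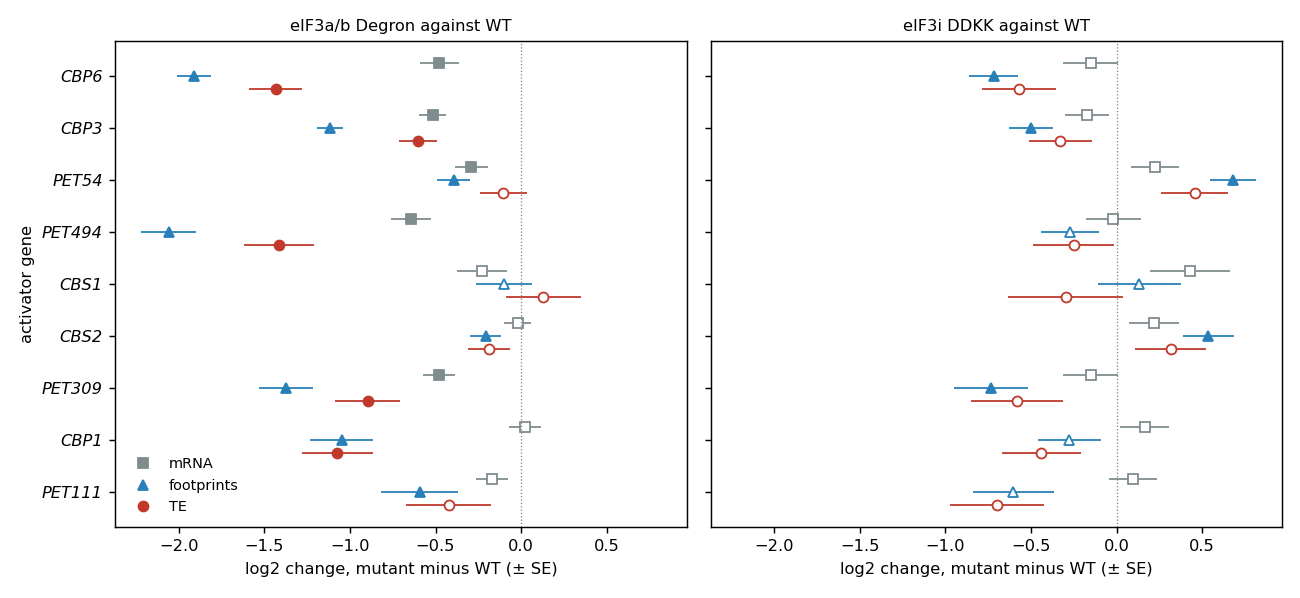
Log2 change, mutant minus WT, of mRNA (squares), footprints (triangles) and TE (circles) for each activator in each of the mutants, with 1 standard error. Filled symbols passed an adjusted p of 0.05: 5 TE changes in *eIF3a/b Degron* cells, all below 0, and none in *eIF3i DDKK* cells.

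In *eIF3i DDKK* cells no TE change of a member passed the test (edgeR, adjusted p under 0.05), against 2.88% of 5244 genes called lower and 1.14% called higher. At an unadjusted p under 0.05 there were 3, *CBP6*, *PET111* and *PET54*, and DESeq2 called none. The spread between cultures was larger in this background, with a biological coefficient of variation of 0.12 against 0.048 in the other. The split over all genes, 151 lower and 60 higher, was 128 and 112 with DESeq2, 84 and 69 with TMM within each assay, 49 and 65 with library size alone and 60 and 81 without YDR445C, and no member was called in any of these fits. *PET54* was called higher with all 16 libraries in 1 fit (0.60, adjusted p = 0.0297) and without the first mutant culture (0.66, adjusted p = 0.047).

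Log2 TE in *eIF3i DDKK* cells lay below both WT cultures for 6 members and above both for *PET54* and *CBS2*. Such a lack of overlap was seen for 30.2% of all genes in the first direction and 29.8% in the second. *CBP6* had 0.61 and 0.97 in the mutant against 1.21 and 1.33 in WT, with a TE change of -0.57 (SE 0.22, adjusted p = 0.17, edgeR). *PET111* had -4.14 and -4.32 against -3.56 and -3.70, with a change of -0.70 (SE 0.28, adjusted p = 0.187) that rests on 23 and 15 footprint reads in the mutant. *PET494*, the member with the second largest TE change in *eIF3a/b Degron* cells, overlapped its WT here, at -0.72 and -1.11 against -0.79 and -0.72, with a TE change of -0.25 (SE 0.24, adjusted p = 0.6). The other TE changes were -0.58 for *PET309*, -0.44 for *CBP1*, -0.33 for *CBP3*, -0.30 for *CBS1* and 0.32 for *CBS2*, each with a standard error of 0.18 to 0.34.

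No mRNA change of a member was called in *eIF3i DDKK* cells, where 12.0% of all genes were called lower and 16.5% higher. At an unadjusted p under 0.05 there was likewise none, and DESeq2 called none. The split over all genes in mRNA, 630 lower and 867 higher, was 303 and 1235 with library size alone, 763 and 652 with TMM within each assay and 800 and 615 without YDR445C. Members' mRNA changes lay between -0.17 for *CBP3* and 0.43 for *CBS1*, whose mRNA was at 34.3 and 24.8 RPKM in the mutant against 20.6 and 23.7 RPKM in WT.

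Footprints of 3 members were called lower and of 2 higher in *eIF3i DDKK* cells, shares near the 26.2% of all genes called in each direction. *CBP6* fell by 0.72 (SE 0.14, adjusted p = 0.00247, edgeR), with 63.3 and 73.1 RPKM in the mutant against 105 and 119 RPKM in WT. *PET309* fell by 0.73 (SE 0.21, adjusted p = 0.0167), with 2.72 and 1.94 RPKM against 4.13 and 3.67 RPKM. *CBP3* fell by 0.50 (SE 0.13, adjusted p = 0.00911), with 46.8 and 57.8 RPKM against 75.9 and 72.0 RPKM. These 3 also fell in *eIF3a/b Degron* cells. *PET54* rose by 0.68 (SE 0.14, adjusted p = 0.00258), with 62.4 and 73.1 RPKM in the mutant against 39.2 and 45.3 RPKM in WT, and *CBS2* by 0.54 (SE 0.15, adjusted p = 0.0125), with 34.1 and 43.7 RPKM against 26.4 and 27.1 RPKM. *PET111*, at -0.60 (adjusted p = 0.0553), lay just outside the threshold.

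Each of these footprint calls depended on a choice. With library size alone no member was called lower, and over all genes 646 were called lower and 1975 higher against 1373 and 1375 here. Relative to the median gene of the same fit the changes hardly differed, at -0.72 for *CBP6* with library size alone and -0.73 here. Without the second WT culture no member was called lower and 1 higher, and without the first WT culture 1 was lower and none higher. *PET54* kept its call in every fit but the one without the first WT culture (adjusted p = 0.0797). *CBP6* lost it with library size alone (adjusted p = 0.122) and without the second WT culture (adjusted p = 0.0666). *CBS2* lost it without any of 3 cultures (the second of the mutant and either of WT) and at an adjusted p of 0.01. *PET309* lost it in the same fits and with library size alone (adjusted p = 0.181, edgeR). *CBP3* lost it with library size alone (adjusted p = 0.448) and without either WT culture.

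Whether a member changed to a different extent in the 2 backgrounds was tested as a difference of differences in 1 fit of all 16 libraries, over 5228 genes. For TE no member passed (edgeR, adjusted p under 0.05), against 1.78% of all genes called lower and 1.89% higher, with 3 members at an unadjusted p under 0.05 and 1, *PET494*, called by DESeq2. *PET494* came closest, with a change in *eIF3a/b Degron* cells that was lower than that in *eIF3i DDKK* cells by 1.13 on the log2 scale (SE 0.32, adjusted p = 0.065), and *CBP6* followed with -0.83 (SE 0.25, adjusted p = 0.0722). *PET494* passed with TMM within each assay, and both passed with the replicate number as a block. The split over all genes, 93 lower and 99 higher, was 29 and 65 with library size alone and 128 and 85 with TMM within each assay.

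For footprints, 6 of the 9 members differed between the backgrounds, all with the lower change in *eIF3a/b Degron* cells, against 27.4% of all genes in that direction and 26.5% in the other. For mRNA 3 did, against 21.4% lower and 17.2% higher over all genes. The largest footprint difference was again that of *PET494*, at -1.81 (SE 0.25, adjusted p = 2.7e-05, edgeR), followed by *CBP6*, at -1.22 (SE 0.16, adjusted p = 2.49e-05). *PET54* and *CBS2*, whose footprints were called lower in *eIF3a/b Degron* cells and higher in *eIF3i DDKK* cells, differed by -1.10 (SE 0.17, adjusted p = 6.73e-05) and -0.76 (SE 0.17, adjusted p = 0.00128). As given above, the lower call of *CBS2* was lost with DESeq2 and its change had the opposite sign with library size alone. *PET111*, *PET309* and *CBS1* did not pass for any of the 3 quantities.

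Genes of the same mitochondrial message were not all called alike in TE in *eIF3a/b Degron* cells, and differences between them were not tested. For *COX3*, *PET494* fell by 1.42 in TE and *PET54* changed by -0.10. For *COB*, the TE changes of the 5 genes ran between -1.44 for *CBP6* and 0.13 for *CBS1*, with 3 of the 5 called lower. *COX1* and *COX2* have 1 member each here.

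Beside the 5 of 9 members called lower in TE in *eIF3a/b Degron* cells, with a median of -0.60, 64 of the 78 mitoribosomal protein genes were called lower and 1 higher, *MRP49*, with a median of -0.66. The lowest was *NAM9*, at -1.75 (SE 0.11). The members' median footprint change was -1.05, against -1.46 for the mitoribosomal proteins, all 78 of which fell. The median mRNA change was -0.29 for the members and -0.77 for the mitoribosomal proteins, of which 77 of 78 fell. In *eIF3i DDKK* cells the median TE change was -0.33 for the members, with none called, against -0.40 for the mitoribosomal proteins, with 6 of 78 called lower, and -0.08 for all genes. Footprints of 3 of the 9 members were called lower there, against 56 of the 78, and mRNA of none, against 17 of 78. No test of the members against the mitoribosomal proteins was made.

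Of 8 other factors listed here as message-specific, a grouping not checked in these data, 4 were called lower in TE in *eIF3a/b Degron* cells. Another 3 were called higher, beside 33.1% lower and 26.8% higher of all genes. *MSS51*, which couples *COX1* translation to assembly of the enzyme, was the lowest at -1.44 (SE 0.13, adjusted p = 3.24e-09, edgeR), while its mRNA fell by 1.23. *RMD9*, at -1.35, *AEP2*, which serves the *ATP9* message, at -1.24, and *ATP22*, which serves *ATP6*, at -0.62 were the others. *AEP3*, which acts on the *ATP6*/*ATP8* message, was the highest at 0.60 (SE 0.16, adjusted p = 0.00247), followed by *SOV1* at 0.41 and *AEP1* at 0.30. None of the 8 passed in *eIF3i DDKK* cells, where *RMD9* was lowest at -0.83 (adjusted p = 0.0559) and *AEP3* highest at 0.85 (adjusted p = 0.0686).

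The general translation factors, which serve all mitochondrial messages, moved one way in *eIF3a/b Degron* cells. Of 8 general translation factors 7 were called lower in TE in *eIF3a/b Degron* cells, with *IFM1*, the initiation factor, lowest at -1.79 and *MEF2* highest at -0.42 (not called). All 8 fell in mRNA and in footprints. In *eIF3i DDKK* cells 1 of 8 was called lower in TE, *MEF1*, at -0.97. Of 6 genes for mitochondrial transcription and RNA turnover 5 were called lower in TE in *eIF3a/b Degron* cells, with the RNA polymerase gene *RPO41* at -2.59 and *SUV3* highest at -0.03. Their mRNA did not move one way, with 4 called lower and 1 higher, *NAM1*, at 0.24 (adjusted p = 0.0165, edgeR).

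Nuclear-encoded subunits of the complexes that the activators serve were seldom called lower in TE in *eIF3a/b Degron* cells, but most fell in mRNA and in footprints. None of 9 cytochrome c oxidase subunit genes was called lower in TE in *eIF3a/b Degron* cells and 4 were called higher, between *COX5B* at -0.72 (not called) and *COX7* at 0.44, and 8 of 9 fell in mRNA and 8 of 9 in footprints. Of 9 cytochrome bc1 subunit genes 1 was called lower, *QCR2* at -0.33, and 5 higher, up to *QCR6* at 0.63, and all 9 fell in mRNA and in footprints. Whether these changes differ from those of the activators was not tested. Assembly factors of these complexes lay between, with 12 of 21 called lower and 2 higher, from *COX17* at -1.69 to *COX16* at 0.50. In *eIF3i DDKK* cells the mRNA of 8 of the 9 oxidase subunits and 8 of the 9 bc1 subunits rose, where no member's mRNA was called. *COX7* is the neighbour of *PET111*, on the same strand and 501 nt away, and *COX9* that of *CBS1*, 406 nt away, and in *eIF3a/b Degron* cells the mRNA of *COX7* fell by 0.85. *COX9* mRNA fell by 1.18 there. Neither activator's mRNA change passed the test, but that of *PET111* did with library size alone (-0.24, adjusted p = 0.0224, edgeR), with TMM within each assay, with all 16 libraries in 1 fit and without the first mutant culture. That of *CBS1* passed with TMM within each assay (-0.35, adjusted p = 0.0358).

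**Figure D4:**
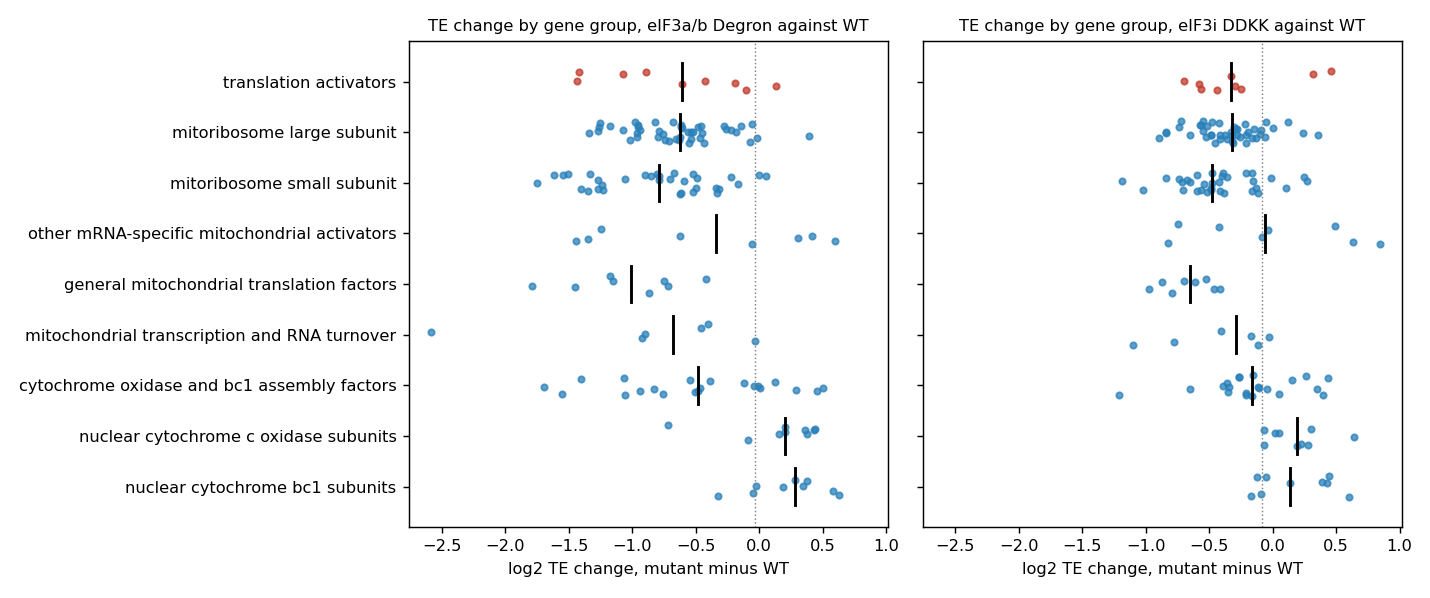
Log2 TE change, mutant minus WT (x), of each gene in 9 groups of mitochondrial genes, for each of the mutants. A black bar is the group's median and the dotted line that of all genes tested. The activators spread between -1.44 and 0.13 in *eIF3a/b Degron* cells, with 5 of 9 called lower, and the cytochrome c oxidase and bc1 subunits lie to the right of the line for the most part.

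The members' profiles over the 16 libraries were compared after each gene's mean was taken out within each background and assay, on the log2 scale. *CBP6* was the closest to the mean of the other members, with a Pearson correlation of 0.94, then *PET494* (0.93), *CBP3* (0.90), *CBP1* (0.87) and *PET309* (0.86). *PET111* had 0.69, and *PET54* (0.30), *CBS1* (0.19) and *CBS2* (0.07) hardly followed the rest. The genes outside the group with the profile most like the members' mean were *MRPS17* (0.99) and *RSM28* (0.98), both proteins of the small mitoribosomal subunit, YHR033W (0.98), *SYN8* (0.98) and *HAP4* (0.98), which encodes the activating subunit of the regulator of respiratory genes. These correlations describe 16 libraries from 8 cultures, and each follows for the most part the difference between mutant and WT in the libraries that the tests used.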

How the data were processed

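Ribosome footprints and mRNA were sequenced from 2 cultures of each of 4 yeast strains. For each background the authors deposited read counts per gene and library, without normalization, leaving 15 codons at the start and 5 at the end of each coding sequence uncounted, with the counted length. The submitters' processing notes name CASAVA 1.8, Bowtie2 2.2.6.0, TopHat2 2.1.0 and the sacCer3 build. A further deposited table holds the authors' log2 TE values, log2 changes and p-values from DESeq2 and was not used. Groups came from the sample labels, and each table was matched to its background through its column names.

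Genes with at least 128 mRNA reads over the 4 mRNA libraries of a background were tested with edgeR 4.0.16 in R 4.3.3 (TMM scaling over 8 libraries, quasi-likelihood F-test, Benjamini-Hochberg adjustment over all genes tested, threshold 0.05). The interaction term between assay and genotype gave the TE change. Standard errors were derived from the log2 change and F. TE levels used 0.5 added to each read count before scaling. In data simulated with each background's dispersion and 200 genes changed 2-fold in TE, edgeR recovered 199 in the Degron background (15 false among 214 calls), 154 in the DDKK background (10 among 164), and 103 in the difference between backgrounds (12 among 115). Each simulated gene had the same mean level in footprint and in mRNA libraries. Recovery for genes with few footprint reads beside their mRNA reads, such as *PET111*, was therefore not measured. Reads carry no molecular identifiers.

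The members and the gene lists were chosen with earlier results of these data known. The text names all members with their values, of each other list its counts, its median and its genes of lowest and highest TE change, the activators outside the members and the *COX7* and *COX9* neighbours, and the 5 genes most like the members' mean. The tests of a difference between backgrounds in mRNA and in footprints were added after the values were seen. Alternatives were DESeq2 1.42.0, library size alone, TMM within each assay, fits without YDR445C, other filters, replicate or culture blocks, all 16 libraries in 1 fit, an adjusted p under 0.01, and fits without 1 culture. Start contexts and features came from RefSeq's R64 annotation, which gave a symbol for 5450 of 5647 genes. Steps outside R used Python 3.11.15, pandas 2.3.3, numpy 2.4.6 and matplotlib 3.10.9.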

Additional observations from a re-analysis of the deposited data

Results flagged for a closer look

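In 9 cases the change of a member differed between the backgrounds by a test of the difference (edgeR, adjusted p under 0.05, over 5228 genes), each with the lower value in *eIF3a/b Degron* cells. For footprints the differences, *eIF3a/b Degron* minus *eIF3i DDKK* on the log2 scale, were -1.81 for *PET494*, -1.22 for *CBP6*, -1.10 for *PET54*, -0.80 for *CBP1* (adjusted p = 0.0152), -0.76 for *CBS2* and -0.64 for *CBP3* (adjusted p = 0.00123). For mRNA they were -0.68 for *PET494* (adjusted p = 0.019), -0.57 for *PET54* (adjusted p = 0.0156) and -0.40 for *CBP3* (adjusted p = 0.0365). Footprints of *PET54* and *CBS2* were below WT in both *eIF3a/b Degron* cultures and above WT in both *eIF3i DDKK* cultures. For *CBS2* the direction in *eIF3a/b Degron* cells depended on the scaling, at 0.031 with library size alone. Over all genes, 27.4% were called lower and 26.5% higher in the footprint difference, and 21.4% and 17.2% in the mRNA difference. These differences were fitted in the main setting alone and not recomputed under the alternatives. With 2 cultures per group, no search for an outlying culture was possible.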

How the results depend on the processing

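Over the members, 864 values were recomputed under the alternatives. The differences between backgrounds in mRNA and in footprints were not among them. Direction and side of the threshold were kept in 793, the call was lost in 30 and gained in 17, and the sign changed in 24, of which 1 was a called change. Of 23 called changes 14 kept their call and direction throughout, among them the 5 TE calls in *eIF3a/b Degron* cells.

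Library size alone moved the median of all genes to 0.28 in the TE of *eIF3a/b Degron* cells (-0.04 otherwise), and to 0.24 and 0.31 in the footprints of the Degron and DDKK backgrounds and 0.28 in DDKK mRNA. With that scaling the changes in *eIF3a/b Degron* cells turned to 0.21 for *PET54* TE, 0.13 for *CBS2* TE, -0.05 for *CBP1* mRNA, and 0.14 for *CBS1* and 0.031 for *CBS2* footprints, with 5 members called lower in footprints. In *eIF3i DDKK* cells they turned to 0.15 (*PET494*), 0.015 (*PET309*) and 0.023 (*CBP6*) for mRNA and to 0.028 (*PET494*) and 0.024 (*CBP1*) for footprints, with 0 called lower. TMM within each assay gave 0.029 for *PET54* TE and -0.094 for *CBP1* mRNA in *eIF3a/b Degron* cells, and all 16 libraries in 1 fit gave 0.07 and -0.103, with 1 TE call higher in *eIF3i DDKK* cells. DESeq2 gave -0.017 for *CBP1* mRNA. At an adjusted p under 0.01, 1 member was called higher in *eIF3i DDKK* footprints. The difference in TE change had 1 member called lower with DESeq2, 1 with TMM within each assay and 2 with the replicate block. The causes were not tested.

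Without single cultures, changes in *eIF3a/b Degron* cells ranged between -0.279 and 0.058 for *PET54* TE, -0.064 and 0.12 for *CBP1* mRNA, -0.041 and 0.002 for *CBS2* mRNA and -0.26 and 0.093 for *CBS1* footprints. In *eIF3i DDKK* cells they ranged between -0.053 and 0.20 for *PET111* mRNA, -0.18 and 0.12 for *PET494* mRNA and -0.12 and 0.34 for *CBS1* footprints. Members called ranged between 0 and 4 lower and 0 and 2 higher in footprints, 0 and 1 higher in TE and 0 and 1 higher in mRNA there, and 0 and 1 lower in the difference between backgrounds.

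Counts over all genes moved most in the DDKK background. For TE they ranged between 21 and 668 lower and 10 and 386 higher, or 2 and 511 and 1 and 230 without single cultures, against 151 and 60. The mRNA counts ranged between 294 and 1115 lower and 319 and 1250 higher, or 103 and 851 and 63 and 1177 without single cultures, against 630 and 867. Those for footprints ranged between 646 and 1605 lower and 890 and 1975 higher, or 726 and 1622 and 557 and 1561, against 1373 and 1375. The difference in TE change ranged between 13 and 185 lower and 10 and 238 higher, or 2 and 346 and 1 and 348, against 93 and 99. In the Degron background TE calls ranged between 930 and 1840 lower and 1103 and 2479 higher, or 1431 and 1615 and 1081 and 1287 without single cultures, against 1755 and 1420. The mRNA calls there ranged between 1459 and 1935 lower and 1517 and 2360 higher, or 1448 and 1565 and 2039 and 2273, against 1636 and 2349.

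Cultures with the same number had deviations correlated by 0.012 and -0.024 in the Degron background and 0.22 and 0.30 in the DDKK background (mRNA and footprints). With 2 numbers these are labels alone, and the replicate block also called *PET111* lower in *eIF3i DDKK* footprints (adjusted p = 0.0393). Footprint and mRNA libraries of the same cultures had deviations correlated by 0.0305 (mutant) and 0.0925 (WT) in the Degron background. In the DDKK background these were 0.435 and 0.215. The main fit did not pair the libraries of a culture, and the culture block among the alternatives did. Low footprint counts, down to 15 reads for *PET111*, limit the members of low TE.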
